A study of Saccharomyces cerevisiae with 36 samples.

Results

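The genes described here are the 4 genes of ribonucleotide reductase (RNR1, RNR2, RNR3 and RNR4) and 5 genes tied to its control or to the DNA damage response (HUG1, SML1, DIN7, RAD54 and DUN1) in the budding yeast Saccharomyces cerevisiae. They were chosen by symbol from the probe annotation, and all 9 were found among the 5449 genes of the expression table. RNA came from 36 cultures of BY4741, a haploid laboratory strain that carries deletions in HIS3, LEU2, MET15 and URA3 in every group. Exponential cells in minimal medium were held for 2 h either without pesticide or with a dose that inhibits growth by 20% (IC20), and each pesticide had its own control cultures, run alongside. The IC20 doses were 200 mg/L of alachlor and 220 mg/L of S-metolachlor, both chloroacetanilide herbicides, 160 mg/L of the carbamate insecticide carbofuran, 80 mg/L of the phenylurea herbicide diuron, 115 mg/L of MCPA-ME, the methyl ester of a phenoxy herbicide, and 20 mg/L of the anilinopyrimidine fungicide pyrimethanil. The 6 IC20 groups and 6 control groups held 3 independent cultures each, 1 array per culture. A mark, (2), closes the title of each treated alachlor array, and its meaning is not given here.

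Ribonucleotide reductase makes the building blocks of DNA by reducing ribonucleotides, and it is the step that limits their supply. In yeast the large subunit is Rnr1, or its damage-induced paralog Rnr3, and the small subunit is a pair of Rnr2 and Rnr4. The small protein Sml1 binds and inhibits Rnr1, and Hug1 is a small inhibitor that binds the small subunit. When DNA is damaged or replication stalls, the kinases Mec1 and Rad53 activate the kinase Dun1. Dun1 brings about the removal of Sml1 and the release of the repressor Rfx1 (also called Crt1), which holds RNR2, RNR3, RNR4, HUG1 and its own gene down through the corepressor Cyc8-Tup1. RNR1 is driven in late G1 by the factor MBF. DIN7 codes for a mitochondrial nuclease of the DNA damage response and RAD54 for a motor protein of homologous recombination.

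Levels are given as probe set intensity, unlogged, and levels of different genes cannot be compared because each probe set binds with its own efficiency. Changes are given on the log2 scale as IC20 minus own control, with intensities below 32 set to 32, and limma's moderated test was adjusted over all 5449 genes by the Benjamini-Hochberg method. A change was called at an adjusted p under 0.05. Each of the 9 genes had 1 probe set, and none of its values lay below 32. In bulk cultures, more cells with a transcript and more transcript per cell cannot be told apart.

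The strain markers were as the genotype gives them except for HIS3 and for SAG1, a gene of MATalpha cells. Over the 36 arrays URA3 lay between 6.09 and 24.41, MET15 (listed as MET17) between 9 and 68.24, and LEU2 between 66.97 and 194.6, while HIS3 lay between 4142 and 11322. The BY4741 allele of HIS3 is known to lack only part of that gene. STE2, a receptor gene of MATa cells, lay between 8519 and 19932, and the alpha-factor gene MF(ALPHA)1 between 9.07 and 62.98. SAG1 was not as low, between 483.0 and 1736. Treated array 2 of MCPA-ME and treated array 1 of carbofuran were each the farthest from their group, with a median log2 distance of 0.362 and 0.203 from the mean of its other arrays, where the median over all arrays was 0.0988. Treated array 1 of MCPA-ME lay at 0.228. The first pair are called the 2 arrays that stood apart, and values without them are given beside several results for carbofuran and MCPA-ME.

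Over all pesticides, the small subunit genes RNR2 and RNR4 and the inhibitor gene HUG1 were the members called most often. HUG1 rose with 5 of 6 pesticides, RNR4 with 4 and RNR2 with 3, RNR3 rose with 2, and SML1 and DIN7 with 1 each. Per pesticide, 3.52% (alachlor) to 18.4% (carbofuran) of all genes were called higher and 1.5% (alachlor) to 23.7% (carbofuran) lower. RNR1, RAD54 and DUN1 were not called with any pesticide, and no member was called lower with any of the 6. At an unadjusted p under 0.05, RNR1 and RAD54 each had 1 comparison of 6 and DUN1 had 0.

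**Figure D1:**
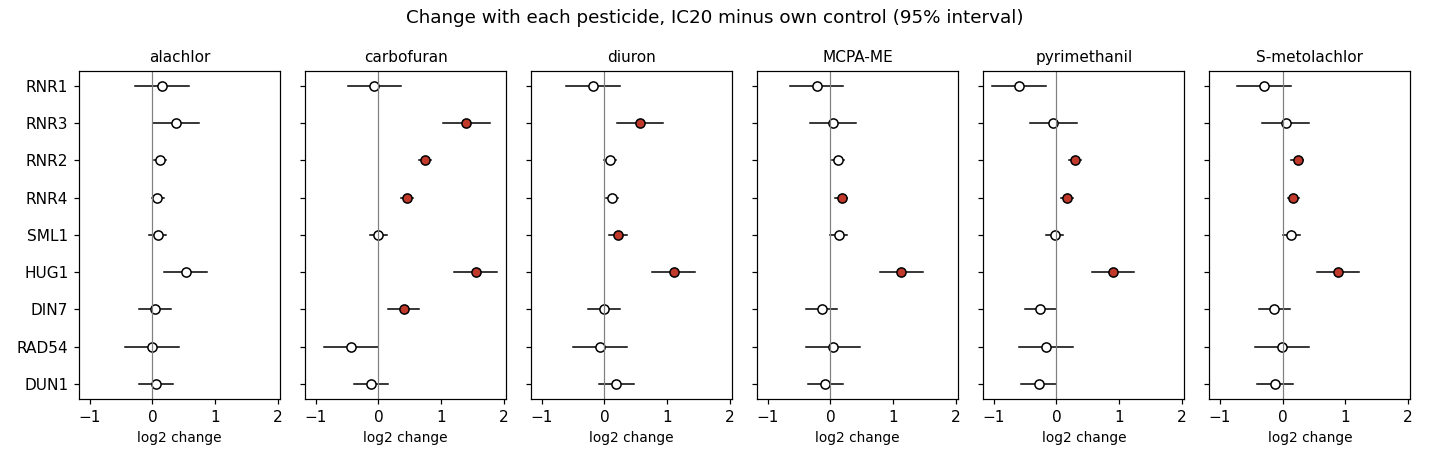
Log2 change (IC20 minus own control, x axis) of the 9 genes in 1 panel per pesticide. Points are fitted changes, bars are 95% intervals from limma and filled points were called at an adjusted p under 0.05. HUG1 lies to the right of 0 in all 6 panels, from 0.53 with alachlor to 1.55 with carbofuran.

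Carbofuran moved the most members. RNR2, RNR3, RNR4, HUG1 and DIN7, 5 of 9, were called higher and 0 lower, where 18.4% of all genes were called higher and 23.7% lower. The 3 IC20 arrays did not overlap the 3 control arrays for 5 of 9 members and for 49.8% of all genes. The median change was 0.40 over the members and -0.01 over all genes. Without the 2 arrays that stood apart, RNR2, RNR4, HUG1 and DIN7 changed by 0.75, 0.45, 1.61 and 0.48 and RNR3 was still called (limma adjusted p = 1.33e-07). With RAD54 added on the lower side, 6 members were then called, where 24% of all genes were called higher and 31.8% lower.

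Diuron raised RNR3, HUG1 and SML1, 3 of 9, where 8.52% of all genes were called higher and 5.84% lower. Arrays did not overlap for 5 members and for 40.2% of all genes, and the median change was 0.12 against 0.00. Pyrimethanil raised RNR2, RNR4 and HUG1, where 6.39% of genes were called higher and 9.71% lower. Arrays did not overlap for 5 members (RNR1 and DIN7 on the lower side) and for 41.6% of all genes, with medians of -0.05 and -0.04. S-metolachlor raised the same 3 genes, RNR2, RNR4 and HUG1, where 10.1% of genes were called higher and 14.4% lower. Here 5 members and 54.9% of all genes did not overlap, with medians of 0.05 and -0.02.

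MCPA-ME raised RNR4 and HUG1, 2 of 9, where 9.97% of all genes were called higher and 8.61% lower, with 5 members and 18.9% of all genes not overlapping and medians of 0.04 and -0.02. Without the 2 arrays that stood apart, 14.2% of all genes were called higher and 16% lower with MCPA-ME. The same 2 members were then called, at 0.14 for RNR4 and 1.13 for HUG1, and RNR3 stood at 0.26 (limma adjusted p = 0.265) in place of 0.04. Without MCPA-ME IC20 array 1 RNR4 and HUG1 were called as well, at 0.21 (adjusted p = 0.00308) and 1.21 (2.94e-05). With alachlor limma called 0 of 9 members, where 3.52% of all genes were called higher and 1.5% lower. At an unadjusted p under 0.05 alachlor had 3 members, RNR2, RNR3 and HUG1, all higher. Arrays did not overlap for 4 members (RNR2, RNR3, RNR4 and SML1, all with IC20 above control) and for 30.8% of all genes. The count for alachlor was 1 in a fit of its own 6 arrays, which called RNR3, and 3 with array weights, which called RNR2, RNR3 and HUG1.

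All 12 changes of the small subunit genes RNR2 and RNR4 were positive, with no overlap between IC20 and control arrays in any experiment. Of all genes, 18.9% (MCPA-ME) to 54.9% (S-metolachlor) had no overlap within an experiment, in 1 direction or the other. RNR2, which codes for the subunit that carries the iron cofactor, read 12167, 13598 and 12679 in the carbofuran controls and 21032, 21167 and 21847 with carbofuran. Every carbofuran array thus lay well above every control array of the series, where the highest was 14877. The means were 12814 ± 725.0 and 21349 ± 436.4 (SD, n = 3), a 1.67-fold rise (log2 change 0.74, 95% interval 0.64 to 0.83, limma adjusted p = 6.48e-12).

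With pyrimethanil RNR2 went from 14702, 14877 and 14482 to 18074, 17239 and 18846, a rise of 0.30 on the log2 scale (limma adjusted p = 5.73e-05). With S-metolachlor it went from 11227, 11195 and 11505 to 13495, 13001 and 13554 (0.24, adjusted p = 0.000445). These rises were 1.23-fold and 1.18-fold, small beside carbofuran's, but replicates of RNR2 differed little, with an SD of 1.35% to 6.43% of the mean across the 12 groups. The S-metolachlor call was lost when all 18 control arrays served as 1 control group (0.04, adjusted p = 0.708), and the S-metolachlor controls held the lowest RNR2 mean of the 6 control groups. Alachlor, MCPA-ME and diuron gave 0.12, 0.12 and 0.09, with adjusted p of 0.163, 0.0663 and 0.205. Leaving out MCPA-ME control array 3 brought the RNR2 change with MCPA-ME to 0.16 and its limma adjusted p to 0.0169, and leaving out control array 2 brought them to 0.07 and 0.336.

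RNR4, which codes for the partner that helps Rnr2 take up its iron, read 15443, 16198 and 15907 in the carbofuran controls. With carbofuran it read 21610, 21726 and 21652, with an SD of 0.27% of the mean. The rise was 1.37-fold, from 15849 ± 381.0 to 21663 ± 58.49 (SD, n = 3; log2 change 0.45, 95% interval 0.36 to 0.55, limma adjusted p = 4.21e-08).

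RNR4 also rose with MCPA-ME, from 14819, 14202 and 15177 to 15925, 17609 and 16489 (log2 change 0.18, limma adjusted p = 0.00691). With S-metolachlor it rose from 12672, 13368 and 13736 to 14409, 15065 and 15246 (0.17, adjusted p = 0.00853), and with pyrimethanil from 16361, 15282 and 14717 to 17430, 17364 and 17069 (0.16, adjusted p = 0.0161). All 3 rises were 1.12-fold or 1.13-fold, and each call depended on some setting. The MCPA-ME call was lost in a fit of its own 6 arrays (adjusted p = 0.424) and with array weights (0.163). The pyrimethanil call was lost without control array 3, IC20 array 1 or IC20 array 2 (adjusted p 0.0988, 0.053 and 0.0551) and the S-metolachlor call without control array 1 (0.0608) and with all 18 controls as 1 group (log2 change 0.04, adjusted p = 0.641). Diuron and alachlor gave 0.12 and 0.08, with adjusted p of 0.0737 and 0.416.

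Of the large subunit genes, RNR3 rose with carbofuran and diuron, and RNR1 had no call. RNR3, the paralog that is kept low until DNA is damaged, read 278.8, 387.9 and 338.6 in the carbofuran controls and 756.1, 903.8 and 982.4 with carbofuran. The lowest treated array lay far above the highest control array, and the means of 335.1 ± 54.6 and 880.8 ± 114.9 (SD, n = 3) gave a 2.64-fold rise. The log2 change was 1.40 (95% interval 1.03 to 1.77, limma adjusted p = 1.51e-06), which ranked 26th from the highest of 5449 genes.

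With diuron RNR3 went from 372.2, 405.3 and 331.7 to 587.6, 576.4 and 485.9, again without overlap. The rise was 1.49-fold (log2 change 0.57, limma adjusted p = 0.0312). It was lost without control array 1 or 3 or without IC20 array 1 or 2 (adjusted p of 0.0665, 0.153, 0.121 and 0.107). With alachlor RNR3 read 592.4, 527.6 and 520.6 in controls and 649.7, 729.9 and 749.5 in treated cultures, a difference of 0.38 that did not pass the test (adjusted p = 0.302). MCPA-ME, S-metolachlor and pyrimethanil gave 0.04, 0.05 and -0.05, with intervals of -0.33 to 0.41, -0.32 to 0.42 and -0.42 to 0.32. Those intervals leave room for changes of up to about 0.4 in either direction.

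RNR1, the large subunit of normal S phase, was not called with any pesticide. Its change with pyrimethanil was the most negative, from 2564, 2644 and 3835 in controls to 1774, 1832 and 2346 with the fungicide. All 3 treated arrays lay below all 3 controls, and the means were 3015 ± 711.9 and 1984 ± 314.8 (SD, n = 3), 1.51-fold lower (log2 change -0.59, 95% interval -1.02 to -0.16, limma adjusted p = 0.0534). Same-numbered pyrimethanil cultures deviated together, and with the replicate number as a block the adjusted p was 0.0298. It was 0.041 without IC20 array 3, where the change was -0.72, and 0.267 without control array 3, where the change was -0.40. With all 18 controls as 1 group the change was -0.93 (adjusted p = 0.0065).

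With S-metolachlor RNR1 went from 3411, 3985 and 3798 to 2955, 3322 and 2802, also without overlap (log2 change -0.30, limma adjusted p = 0.307). Carbofuran, diuron and MCPA-ME gave -0.07, -0.18 and -0.22, and alachlor gave 0.15. The MCPA-ME controls were spread, at 4763, 3369 and 2106, and without the third of them the change was -0.53 (limma adjusted p = 0.0495). Without control array 1 it was 0.06 (adjusted p = 0.91) and without IC20 array 2 it was -0.01 (0.996), so the RNR1 value with MCPA-ME depended on which array was left out. RNR1 therefore had 1 positive change of 6, where RNR2, RNR4 and HUG1 had 6 of 6.

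**Figure D2:**
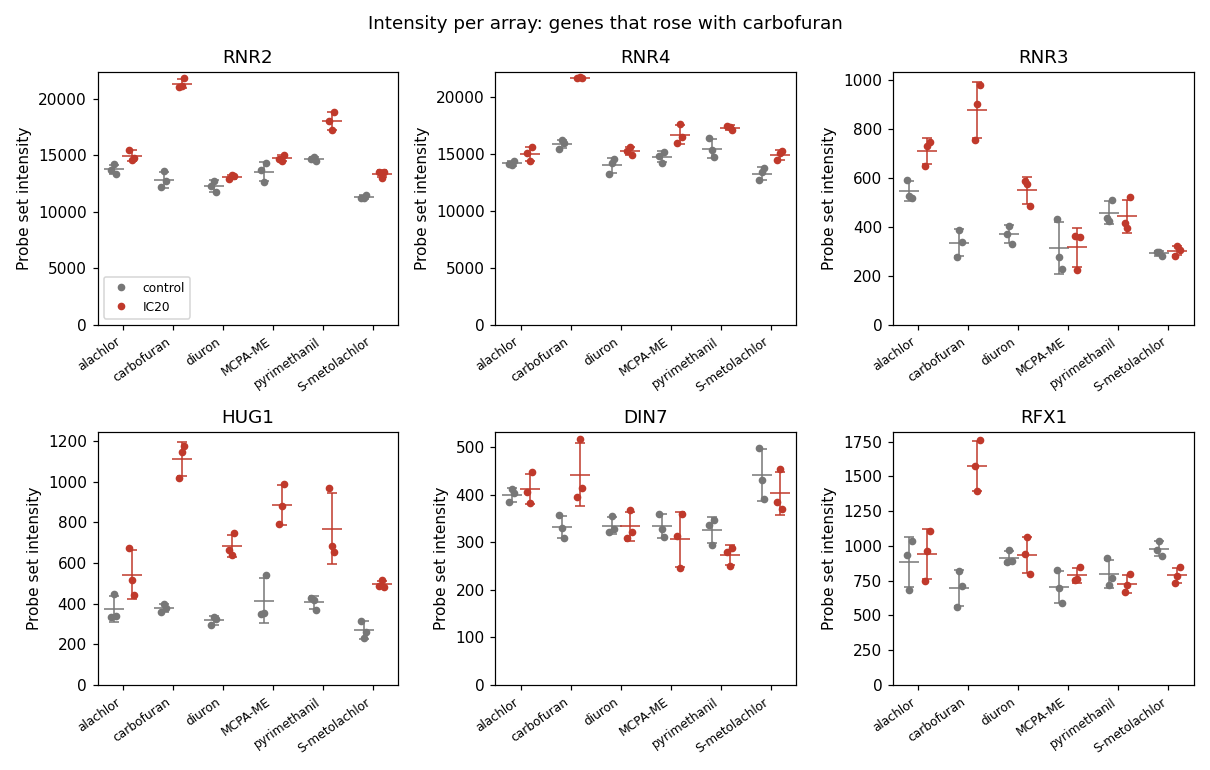
Probe set intensity (y axis, linear scale from 0) on every array of the 12 groups for the 5 members that rose with carbofuran and for RFX1. Grey points are controls, red points IC20 cultures, and bars show mean ± SD of 3 arrays. In the carbofuran columns all red points lie above all grey points in each panel.

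HUG1, an inhibitor gene, had the largest change of the 9 members with each of the 6 pesticides when each was set against its own control. With alachlor that order did not hold against all 18 controls, where RNR3 stood at 0.93 and HUG1 at 0.60, or without IC20 array 1. With S-metolachlor it did not hold against all 18 controls either, where DUN1 stood at 0.56 and HUG1 at 0.48. HUG1 read 359.9, 397.6 and 378.3 in the carbofuran controls and 1017, 1143 and 1174 with carbofuran. No treated array came near a control, and the rise from 378.6 ± 18.83 to 1111 ± 83.37 (SD, n = 3) was 2.93-fold (log2 change 1.55, 95% interval 1.21 to 1.89, limma adjusted p = 8.66e-08). That change ranked 20th from the highest of 5449 genes.

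With MCPA-ME HUG1 went from 346.6, 351.4 and 540.5 to 791.2, 881.0 and 985.6 (log2 change 1.13, limma adjusted p = 1.61e-05). With diuron it went from 293.3, 334.1 and 325.8 to 665.7, 638.2 and 745.1 (1.10, adjusted p = 2.2e-05). Both rises were more than double, at 2.19-fold and 2.15-fold. In a fit of the 6 MCPA-ME arrays alone the MCPA-ME change was still 1.13 but its adjusted p was 0.105.

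Pyrimethanil took HUG1 from 429.1, 416.7 and 370.3 to 967.5, 683.4 and 653.2 (log2 change 0.90, limma adjusted p = 0.000419), the first treated array being the highest. S-metolachlor took it from 316.6, 232.1 and 260.1 to 486.4, 514.7 and 481.1 (0.89, adjusted p = 0.000281). These were rises of 1.87-fold and 1.85-fold, with no overlap in either experiment. Against all 18 controls the S-metolachlor change was 0.48 (limma adjusted p = 0.017). With alachlor HUG1 read 332.2, 447.4 and 340.8 in controls and 672.4, 514.6 and 440.1 in treated cultures. The third treated array fell inside the control range, and the change of 0.53 missed the threshold (95% interval 0.19 to 0.87, adjusted p = 0.0629). It passed without control array 2 or without IC20 array 3, at 0.67 in both cases (limma adjusted p of 0.0339 and 0.0312). Without control array 1 it was 0.45 (adjusted p = 0.241) and without IC20 array 1 it was 0.36 (0.312).

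Ordered by size, the HUG1 changes ran from carbofuran through MCPA-ME, diuron, pyrimethanil and S-metolachlor to alachlor, and the 95% intervals of neighbours in that order overlapped. Alachlor and S-metolachlor, the pair of chloroacetanilides, were given at different doses, and their HUG1 changes stood at 0.53 and 0.89, their RNR2 changes at 0.12 and 0.24 and their RNR4 changes at 0.08 and 0.17. The 2 doses differ, so no test was made between them.

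SML1, the inhibitor of Rnr1, lies next to HUG1 in the RefSeq annotation (assembly R64), yet its values moved little. With diuron it went from 13622, 13419 and 12553 to 15601, 15457 and 15109, a 1.17-fold rise (log2 change 0.22, 95% interval 0.08 to 0.36, limma adjusted p = 0.0239). That call was lost with median centring of the arrays (adjusted p = 0.0691) and without control array 3, IC20 array 1 or IC20 array 2 (adjusted p of 0.143, 0.0857 and 0.0733). With all 18 controls as 1 group it was 0.14 (limma adjusted p = 0.266). The other 5 changes lay between -0.03 and 0.14, the carbofuran change being 0.00 with an interval of -0.13 to 0.14. In the carbofuran experiment SML1 read 11828, 12995 and 12339 in controls and 11359, 12208 and 13774 in treated cultures, with overlap, beside the 2.93-fold rise of its neighbour HUG1.

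DIN7 was called with carbofuran and with no other pesticide, and went from 356.3, 329.1 and 309.7 to 393.8, 517.5 and 413.2. The rise was 1.32-fold, from 331.7 ± 23.4 to 441.5 ± 66.51 (SD, n = 3; log2 change 0.40, 95% interval 0.16 to 0.65, limma adjusted p = 0.0084). The second treated array was the highest, and without it the change was 0.28 (adjusted p = 0.0821). In a fit of the 6 carbofuran arrays alone the adjusted p was 0.0631. With pyrimethanil DIN7 read 336.0, 294.5 and 346.7 in controls and 279.7, 249.8 and 288.5 in treated cultures, all below the controls (-0.26, adjusted p = 0.155). It was called lower with pyrimethanil against all 18 controls (-0.39, limma adjusted p = 0.0127) and with array weights (-0.35, 0.00153). The other 4 changes lay between -0.14 and 0.04.

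RAD54 had changes from -0.44 to 0.04, and none was called. In the carbofuran experiment it read 587.1, 657.9 and 715.8 in controls and 765.4, 501.8 and 288.1 in treated cultures. The treated arrays spread far more than the controls, with an SD of 46.1% of the mean against 9.86%, and the change of -0.44 had an adjusted p of 0.0934. Carbofuran IC20 array 1, the one that stood apart, held the highest value, and without it the change was -0.78 (adjusted p = 0.0013). Without IC20 array 3, which held the lowest value, it was -0.07 (limma adjusted p = 0.797). RAD54 was also called lower with all 18 controls as 1 group (-0.48, adjusted p = 0.0316) and with array weights (-0.96, 3.01e-05). Whether RAD54 was called with carbofuran thus depended on the treated array left out and on the setting.

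DUN1, the kinase gene at the end of the checkpoint cascade, had changes between -0.28 (pyrimethanil, adjusted p = 0.171) and 0.19 (diuron, adjusted p = 0.433). With diuron it read 1431, 1631 and 1530 in controls and 1548, 1735 and 1968 in treated cultures, with overlap. With pyrimethanil it read 813.6, 974.6 and 924.9 in controls and 594.8, 892.4 and 774.3 in treated cultures, again with overlap. With all 18 control arrays as 1 group the S-metolachlor change turned from -0.12 to 0.56 (limma adjusted p = 0.0473), and the pyrimethanil change was -0.62 (0.0343). Dun1 is activated by phosphorylation, which a transcript level does not measure.

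**Figure D3:**
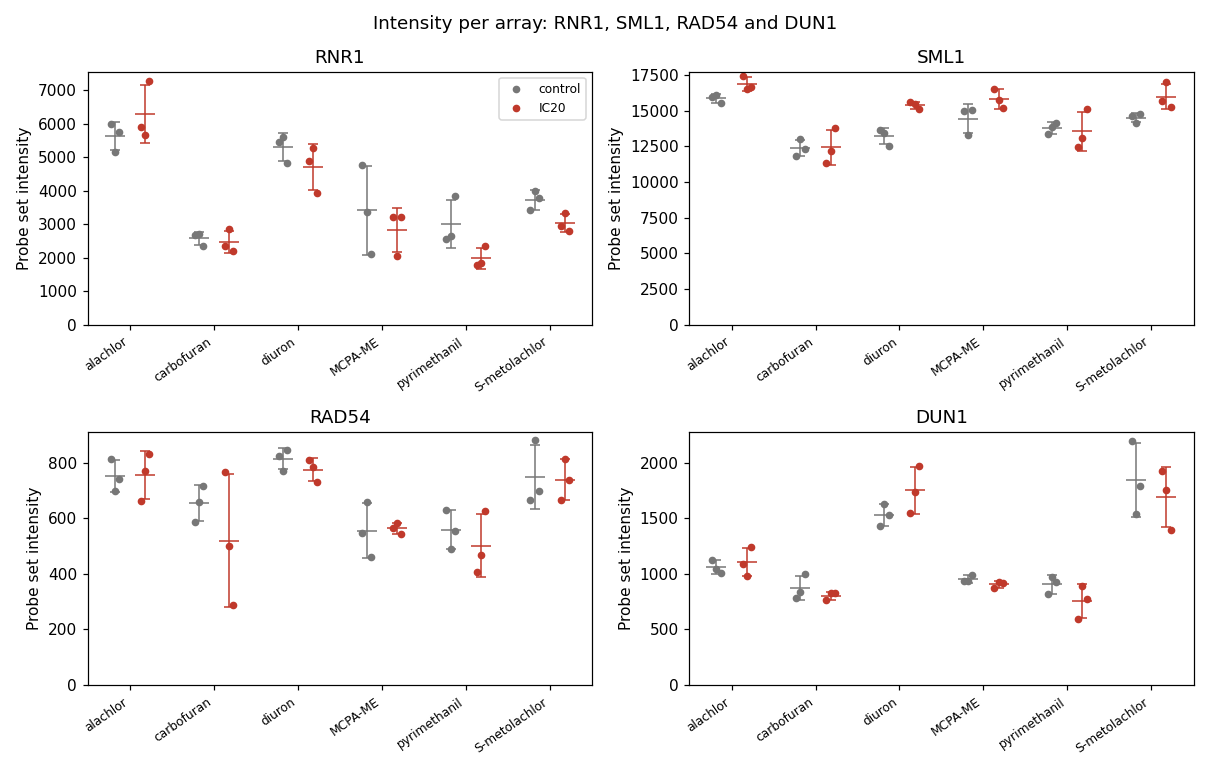
Probe set intensity (y axis, linear scale from 0) on every array for RNR1, SML1, RAD54 and DUN1 in the 12 groups. Grey points are controls, red points IC20 cultures, and bars show mean ± SD of 3 arrays. The RAD54 values with carbofuran run from 288.1 to 765.4, and the RNR1 and DUN1 controls differ between experiments by more than 2-fold.

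Whether the changes differed among the pesticides was tested with an F test over the 6 changes. It called 5 members, RNR2 (F = 27.5, limma adjusted p = 1.29e-07), RNR3 (9.18, 0.000463), RNR4 (8.08, 0.000966), HUG1 (4.24, 0.0193) and DIN7 (3.7, 0.0318), where 43.3% of all genes were called. For SML1, RNR1, DUN1 and RAD54 the adjusted p values were 0.185, 0.335, 0.332 and 0.675. The 5 called genes are the same 5 that carbofuran raised.

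Each change was then set against the mean change with the other 5 pesticides. For carbofuran, RNR3 stood 1.20 higher (limma adjusted p = 4.42e-05), HUG1 0.64 (0.00644), RNR2 0.56 (5.53e-09), DIN7 0.50 (0.00384) and RNR4 0.31 (4.31e-05) on the log2 scale. In this contrast 41.4% of all genes were called in 1 direction or the other. Without the 2 arrays that stood apart the 5 differences were 1.26, 0.70, 0.57, 0.55 and 0.32. RNR2 and RNR4 were called in 47 of 47 alternatives, and RNR3, HUG1 and DIN7 in 46 of 46. The alternative without the dimmest 25% of genes did not include RNR3, HUG1 or DIN7. HUG1 thus rose with 5 pesticides and rose more with carbofuran than with the mean of the others, while DIN7 stood between -0.26 and 0.04 with the other 5.

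For RNR2 the changes with diuron (-0.21, limma adjusted p = 0.0127) and MCPA-ME (-0.18, 0.03) were called below the mean of the other 5. In these contrasts 5.27% and 8.63% of all genes were called. That mean included the carbofuran change of 0.74, and the RNR2 change itself was 0.12 with MCPA-ME and also with alachlor. For MCPA-ME the difference was -0.17 (adjusted p = 0.0435) without the 2 arrays that stood apart. No member was called in this contrast for alachlor, pyrimethanil or S-metolachlor, where 0.33%, 8.02% and 12.7% of all genes were called. With alachlor the differences of RNR2 (-0.18), HUG1 (-0.58) and RNR4 (-0.13) passed limma's test before adjustment and failed it after (adjusted p of 0.145, 0.187 and 0.367).

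The 6 control groups, which held no pesticide, were not alike. The F test over controls called 8 of 9 members, all but RAD54 (adjusted p = 0.0628), where 78.9% of all genes were called. RNR1 controls ran 2.19-fold, from 2576 ± 206.5 with the carbofuran experiment to 5636 ± 424.6 with the alachlor experiment (SD, n = 3). DUN1 controls ran 2.11-fold, from 871.6 ± 109.0 (carbofuran) to 1842 ± 331.3 (S-metolachlor), and RNR3 controls 1.88-fold, from 291.6 ± 10.03 (S-metolachlor) to 546.9 ± 39.53 (alachlor). For RNR1, DUN1, RAD54, DIN7 and SML1 the gaps between untreated groups were larger than any change with a pesticide. DIN7 controls ran 1.35-fold beside a called rise of 1.32-fold (carbofuran), and SML1 controls 1.28-fold beside 1.17-fold (diuron). RNR2 controls ran 1.3-fold beside called rises of 1.23-fold (pyrimethanil) and 1.18-fold (S-metolachlor). The called diuron rise of RNR3 (1.49-fold) and RNR4 rises other than carbofuran's were also below their control gaps. The carbofuran rises of RNR2, RNR3 and RNR4 and all called HUG1 rises exceeded theirs. RNR4 and SML1 controls differed least, by 1.2-fold and 1.28-fold. When all 18 controls formed 1 group, alachlor had 5 members called higher, RNR1 (0.74), RNR2 (0.20), RNR3 (0.93), HUG1 (0.60) and SML1 (0.27), against 0 with its own controls.

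RFX1, the repressor gene that is itself a target of the repressor, was called with carbofuran as well. It read 562.8, 822.4 and 713.5 in the carbofuran controls and 1572, 1394 and 1759 with carbofuran. All treated arrays lay far above the controls, a 2.27-fold rise (log2 change 1.18, limma adjusted p = 2.31e-06). With the other 5 pesticides RFX1 changed by -0.31 to 0.18, with no call. The carbofuran change stood 1.21 above the mean of the others (adjusted p = 7.01e-06) and the S-metolachlor change stood -0.58 from it (adjusted p = 0.026), the latter lost without S-metolachlor control array 1 or 2 or IC20 array 1 or 2. TUP1, for its corepressor, was lower with pyrimethanil (-1.05, adjusted p = 0.00707) and S-metolachlor (-0.98, 0.00761), and CYC8 with pyrimethanil (-0.63, 0.0302). The TUP1 fall with pyrimethanil was lost without control array 1, and the CYC8 fall without any 1 of 5 arrays.

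Other regulators of the enzyme were called with 1 or 2 pesticides. DIF1, for the factor that carries the small subunit into the nucleus, fell with S-metolachlor from a mean of 2678 to 1742 (log2 change -0.62, limma adjusted p = 0.000866) and with MCPA-ME from 2883 to 2199 (-0.39, 0.0341). The MCPA-ME fall was lost under 9 of 19 alternatives. WTM1, for the nuclear anchor of the small subunit, rose with diuron (0.30, adjusted p = 0.0462), a call lost whichever 1 of the 6 arrays was left out. CRT10, a regulator of RNR genes, rose with carbofuran by 0.32 (adjusted p = 0.0179). The kinase gene MEC1 rose with carbofuran by 0.27 (adjusted p = 0.011) and the kinase gene RAD53 fell by 0.59 on the log2 scale (0.0139). RAD53 had low means of 130.7 in controls and 87.9 with carbofuran, and its arrays overlapped. With a floor of 100 the RAD53 change was -0.29 (limma adjusted p = 0.179), and with all 18 controls as 1 group it was -1.06 (0.000238). The MEC1 and CRT10 rises were lost without carbofuran control array 1 or IC20 array 2, MEC1's also without control array 3 and with all 18 controls as 1 group (0.11, adjusted p = 0.28), and the RAD53 fall without any 1 of 4 arrays. PLM2 and the thymidylate synthase gene CDC21 were not called with any pesticide.

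Among the wider repair genes more were called lower than higher with carbofuran. With carbofuran, 0 of 14 recombination genes rose and 5 fell, among them RAD59 (-0.69), RDH54 (-0.53) and RAD52 (-0.46), with a list median of -0.23. The RDH54 fall was lost without control array 1 or IC20 array 3. Of 10 translesion and postreplication genes 0 rose and 6 fell, among them REV7 (-0.93), RAD18 (-0.78) and REV1 (-0.76), and of 18 excision repair genes 1 rose and 6 fell, led by the nuclease gene APN1 (-1.12). Of 4 mismatch repair genes 1 fell, PMS1 (-0.63). These shares stand beside 18.4% of all genes called higher and 23.7% lower with carbofuran. Without the 2 arrays that stood apart, 24% of all genes were called higher and 31.8% lower. The counts of higher and lower calls were then 0 and 8 for recombination, 0 and 6 for translesion repair, 1 and 13 for excision repair and 1 and 1 for mismatch repair. With all 18 controls as 1 group the RAD18 change was -0.14 (limma adjusted p = 0.573).

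With the other pesticides the same lists gave calls in both directions. Of all genes, 8.52% were called higher and 5.84% lower with diuron, 9.97% and 8.61% with MCPA-ME and 6.39% and 9.71% with pyrimethanil. With S-metolachlor these shares were 10.1% and 14.4%, and with alachlor 3.52% and 1.5%. Alachlor called 0 genes of these 4 lists in limma, and 1 higher and 1 lower at an unadjusted p under 0.05, both in excision repair. For recombination the counts of higher and lower calls were 2 and 0 with diuron, 1 and 1 with MCPA-ME, 0 and 0 with pyrimethanil and 0 and 2 with S-metolachlor. For excision repair they were 1 and 2, 2 and 2, 1 and 3, and 2 and 2 in the same order of pesticides. MGT1, for the enzyme that removes alkyl groups from guanine, rose with diuron (0.50), pyrimethanil (0.61) and S-metolachlor (0.73), and RAD16, for a nucleotide excision repair factor, fell with diuron (-0.75) and MCPA-ME (-0.98). For translesion repair the counts were 1 and 0, 2 and 0, 0 and 1, and 1 and 0, and for mismatch repair 0 and 0, 0 and 0, 0 and 2, and 0 and 1. Without the 2 arrays that stood apart, MCPA-ME had 0 and 0 for recombination, 0 and 4 for excision repair, 2 and 1 for translesion repair and 0 and 0 for mismatch repair, where 14.2% of all genes were called higher and 16% lower. With all 18 controls as 1 group the MGT1 calls were lost with diuron (0.27, limma adjusted p = 0.204) and pyrimethanil (0.33, 0.058), and the RAD16 call with diuron (-0.60, 0.152).

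The counts of checkpoint genes, reductase regulators and other damage genes are to be read against the shares of all genes called. Those shares were 18.4% higher and 23.7% lower with carbofuran, 8.52% and 5.84% with diuron, 9.97% and 8.61% with MCPA-ME, 6.39% and 9.71% with pyrimethanil, 10.1% and 14.4% with S-metolachlor and 3.52% and 1.5% with alachlor. Of 21 checkpoint genes 0 were called with alachlor (1 at an unadjusted p under 0.05), while 4 rose and 3 fell with carbofuran, 0 and 1 with diuron, 1 and 1 with MCPA-ME, 0 and 4 with pyrimethanil and 0 and 1 with S-metolachlor. Of the 6 regulators of the reductase, RFX1 among them, 2 rose with carbofuran, 1 rose with diuron, 1 fell with MCPA-ME and 2 fell with S-metolachlor. Alachlor and pyrimethanil called 0 of these 6, with 0 and 1 at an unadjusted p under 0.05. Of 13 other genes known to rise after DNA damage, 3 rose and 1 fell with carbofuran, 2 and 1 with diuron, 2 and 1 with MCPA-ME, 1 and 1 with pyrimethanil, 2 and 2 with S-metolachlor and 1 and 0 with alachlor. UBI4, the polyubiquitin gene of that list, rose with S-metolachlor (1.01), carbofuran (0.89), diuron (0.75), alachlor (0.60) and MCPA-ME (0.60). RAD23 of that list fell with carbofuran (-0.59), pyrimethanil (-0.68) and S-metolachlor (-0.62), each call lost without some single arrays. PHR1 fell with S-metolachlor (-0.71) and RAD16 with diuron (-0.75) and MCPA-ME (-0.98). Against all 18 controls RAD23 with carbofuran (-0.12, limma adjusted p = 0.59) and PHR1 with S-metolachlor (-0.27, 0.358) were not called. UBI4 is known to answer to other stresses too. Its call with alachlor was lost without any 1 of 5 arrays (all but control array 3), and its call with MCPA-ME without control array 1 or IC20 array 2. With all 18 controls as 1 group UBI4 was not called with diuron (0.17, limma adjusted p = 0.732), MCPA-ME (0.40, 0.242) or alachlor (0.49, 0.146).

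Without the 2 arrays that stood apart, the shares of all genes called were 24% higher and 31.8% lower with carbofuran. With MCPA-ME they were 14.2% and 16%. In that fit 5 checkpoint genes were called higher and 8 lower with carbofuran, 2 and 0 of the reductase regulators, and 3 and 5 of the other damage genes. With MCPA-ME these counts were 3 and 4, 1 and 0, and 0 and 2. For deoxynucleotide synthesis and reductants they were 2 and 2 with carbofuran and 9 and 0 with MCPA-ME, and for the G1/S genes 4 and 8 with carbofuran and 3 and 2 with MCPA-ME.

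**Figure D4:**
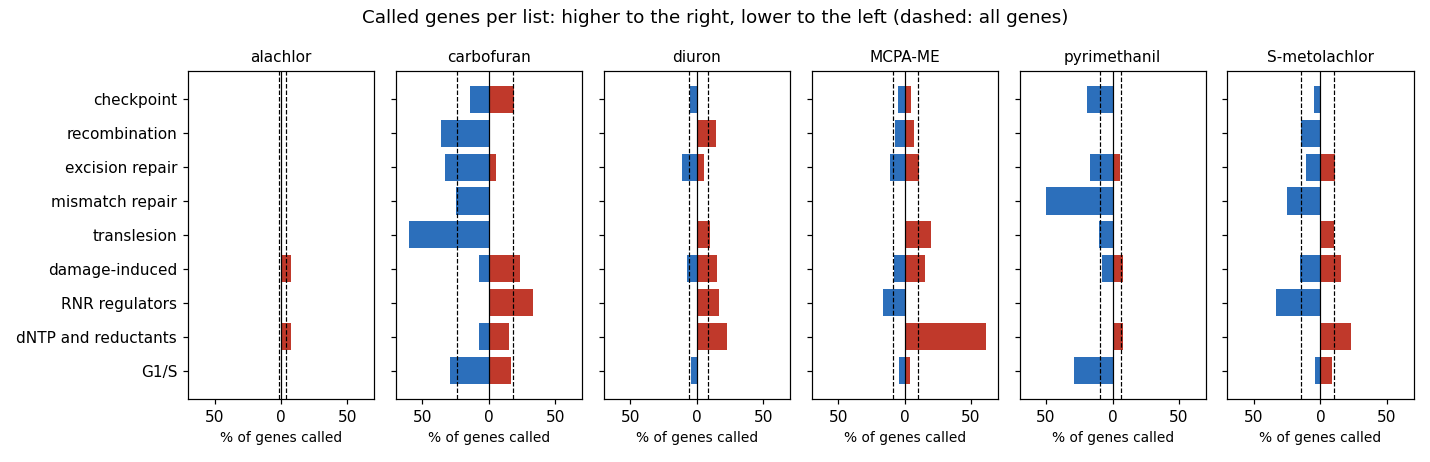
Percent of the genes in each of 9 lists that were called higher (red, to the right) or lower (blue, to the left), in 1 panel per pesticide, with dashed lines at the percent of all 5449 genes. With carbofuran 6 of 10 translesion genes were called lower, and with MCPA-ME 8 of 13 genes for deoxynucleotide synthesis and reductants were called higher.

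The reductase takes its electrons from thioredoxin and glutaredoxin. Of 13 genes for these reductants and for other steps of deoxynucleotide synthesis, 8 rose and 0 fell with MCPA-ME, where 9.97% of all genes were called higher. TRX2, for a cytosolic thioredoxin, rose with all 6 pesticides, by 0.20 with alachlor, 0.23 with carbofuran, 0.29 with diuron, 0.41 with MCPA-ME, 0.21 with pyrimethanil and 0.23 with S-metolachlor. The glutaredoxin genes GRX1 and GRX2 rose with MCPA-ME by 0.59 and 0.37. GRX2 also rose with carbofuran (0.39) and S-metolachlor (0.33), and GRX1 with diuron (0.55). With all 18 controls as 1 group GRX2 with carbofuran (0.12, limma adjusted p = 0.379) and GRX1 with diuron (0.19, 0.478) were not called. The list had 2 higher and 1 lower calls with carbofuran, where 18.4% of all genes were called higher and 23.7% lower. The counts were 3 and 0 with diuron (8.52% and 5.84% of all genes) and 1 and 0 with pyrimethanil (6.39% and 9.71%). They were 3 and 0 with S-metolachlor (10.1% and 14.4%) and 1 and 0 with alachlor (3.52% and 1.5%). In a fit of the 6 MCPA-ME arrays alone, the TRX2, GRX1 and GRX2 calls were all lost. Single arrays also ended the MCPA-ME calls of GRX1 (control array 1 or IC20 array 2) and GRX2 (control array 2 or IC20 array 3) and the alachlor call of TRX2 (control array 3 or IC20 array 1).

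RNR1 shares its late G1 timing with other targets of MBF and SBF. Of 24 such genes 0 rose and 7 fell with pyrimethanil, where 6.39% of all genes were called higher and 9.71% lower and RNR1 itself stood at -0.59. CLN2, a G1 cyclin gene, fell by 0.69, CDC9, the DNA ligase gene, by 0.59 and CLB6, an S phase cyclin gene, by 0.53 on the log2 scale, and the list median was -0.25 against -0.04 over all genes. The CLN2 call was lost whichever 1 of the 6 arrays was left out, the CDC9 call without control array 1, and the CLB6 call without control array 3 or IC20 array 1 or 2. The size of the CLB6 change moved with the setting, to -2.16 with all 18 controls as 1 group (limma adjusted p = 0.00188) and to 0.00 with a floor of 100. With carbofuran, where 18.4% of all genes were called higher and 23.7% lower, 4 rose and 7 fell, led by PCL1 (-1.25), SWI4 (-0.99) and MCD1 (-0.95), and with S-metolachlor 2 rose and 1 fell, PCL1 being higher there (0.88). Both PCL1 calls were lost with all 18 controls as 1 group, at -0.27 (adjusted p = 0.535) and 0.37 (0.401). The counts were 0 and 1 with diuron, 1 and 1 with MCPA-ME and 0 and 0 with alachlor, where 2 were higher at an unadjusted p under 0.05. Of all genes, 10.1% were called higher and 14.4% lower with S-metolachlor and 8.52% and 5.84% with diuron. The shares were 9.97% and 8.61% with MCPA-ME and 3.52% and 1.5% with alachlor. Without carbofuran control array 1 or IC20 array 3 the MCD1 fall was lost.

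Across the 36 arrays, each taken as its deviation from the mean of its own experiment, RNR2 and RNR4 varied together (Pearson r = 0.91), and both varied with HUG1 (0.84 and 0.86). RNR3 followed RNR2 less closely (0.74), and RNR1 ran opposite to HUG1 (-0.51). These are descriptions over arrays that share experiments and treatments. Neighbours were sought among 5084 genes with a mean intensity over 100 and a probe set name not ending in _s_at or _x_at. Among these, RNR4 was the second closest to RNR2 after ERG4 (0.92), and ERG25 was the third (0.90). For HUG1 the closest were HMF1, GPG1 and ERG27 at 0.93 each, and for RNR4 they were RNR2, ARF2 (0.89) and ERG25 (0.88). ERG4, ERG25 and ERG27 code for enzymes of ergosterol synthesis.

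RNR3 lay closest to the sterol uptake transporter gene PDR11 (0.92), the fumarate reductase gene FRD1 (0.91) and the peroxisome turnover gene ATG36 (0.90). RNR1 lay closest to GEF1, VNX1 and SDH1 (0.87, 0.87 and 0.86). The other members had weaker neighbours, SML1 with SCW10, OST3 and ATG22 (0.81, 0.75 and 0.75), DIN7 with YBR225W, SEC18 and SYP1 (0.79, 0.75 and 0.74), RAD54 with SET1, GIS4 and YTA12 (0.79, 0.77 and 0.76) and DUN1 with SSQ1, TBF1 and SGF73 (0.76, 0.72 and 0.67).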

How the data were processed

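The deposited table holds probe set intensities on a linear scale for 36 Affymetrix Yeast Genome 2.0 arrays. The authors made these intensities with Affymetrix Expression Console, per the submitters' processing notes. Its version, the probe summary and the normalization were not given in the sources used. Array medians lay between 1319.6 and 1511.4. Per the labels' protocols, hot phenol was used for RNA extraction and biotin for labelling. The number of arrays limits the precision.

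Of 5716 probe sets, 5498 had 1 gene symbol in the platform annotation, 0 had several and 218 had none. Symbols were updated by gene ID through RefSeq for 12 genes, and for 47 genes with several probe sets the one with the highest mean was kept, which left 5449 genes. Intensities under 32 (1.778% of values) were set to 32 before log2. A limma fit (version 3.58.1, R 4.3.3) with 1 mean per group over all 36 arrays gave each IC20 change, the difference of each change from the mean of the other 5, and F tests over the 6 changes and over the 6 controls, two-sided, adjusted over all genes. The fit had 24 residual degrees of freedom. The steps were tested on simulated data.

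The members and the 9 gene lists were chosen with earlier results of these data known. All 9 members are named, and from each list up to 3 called genes per pesticide with the largest change, plus regulators next to a member. For likeness, the 3 genes with the highest correlation were named. Genes whose probe set name ends in _s_at or _x_at were left out of these neighbours and of the largest changes picked from the lists. Lists overlap (RFX1 is in 3 of them), and some listed genes were not analysed here. Same-numbered diuron and pyrimethanil cultures deviated together (correlations of 0.352 to 0.402 and 0.173 to 0.38), and those of the other 4 pesticides did not in every pair. Alternatives covered the normalization, floor, dim genes, probe sets, controls, replicate block, array weights, 2 arrays that stood apart and each array in turn. Promoter and protein sequences were not used here.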

Additional observations from a re-analysis of the deposited data

Results flagged for a closer look

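The change differed among the 6 pesticides for 5 members by limma's F test, RNR2 (F = 27.5), RNR3 (9.18), RNR4 (8.08), HUG1 (4.24) and DIN7 (3.7).

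The carbofuran change stood apart from the mean change with the other 5 pesticides, on the log2 scale, by 0.56 for RNR2, 1.20 for RNR3, 0.31 for RNR4, 0.64 for HUG1, 0.50 for DIN7 and 1.21 for RFX1. The RNR2 change stood lower than the mean of the others with diuron (-0.21) and with MCPA-ME (-0.18). The RFX1 change with S-metolachlor also stood lower than the mean of the others (-0.58). The RNR2 difference for diuron was called in 45 of 47 alternatives, that for MCPA-ME in 41 of 47 and the RFX1 difference for S-metolachlor in 43 of 47.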

How the results depend on the processing

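Of 200 values for the 16 called member changes under other settings 190 kept their direction and call, and of 96 with 1 array left out 84 did. The other 22 kept their direction and lost the call. Members called with alachlor numbered 0, and 5 with all 18 controls as 1 group, 3 with array weights, 1 in a fit of its own 6 arrays and 0 to 1 with 1 array left out. With carbofuran they numbered 5, and 2 without the dimmest 25% of genes, which removes RNR3, HUG1 and DIN7 from the table (4 to 6 with 1 array left out). Diuron gave 3, and 1 without dim genes, 1 with 18 controls and 1 to 3 with 1 array left out. MCPA-ME gave 2, and 1 without dim genes, 1 with array weights, 0 in its own 6 arrays and 2 to 4 with 1 array left out (4 without control array 3). Pyrimethanil gave 3, and 6 with 18 controls, 5 with array weights and 2 to 4 with 1 array left out. The pyrimethanil calls added with 18 controls were all lower, RNR1 (-0.93), DIN7 (-0.39) and DUN1 (-0.62). Those added with array weights were lower too, RNR1 (-0.79) and DIN7 (-0.35). S-metolachlor gave 3, and 5 with array weights (RNR1 added at -0.34 and SML1 at 0.12) and 2 to 3 with 1 array left out. Changes differing among pesticides numbered 5, and 2 without dim genes, 8 with array weights and 4 to 6 with 1 array left out. Controls differing numbered 8, and 5 without dim genes and 7 to 9 with 1 array left out. Changes that differed from the mean of the others numbered 7, and 4 without dim genes, 16 with array weights, 11 without the 2 arrays that stood apart and 6 to 8 with 1 array left out. The cause of these shifts was not tested, except where genes or arrays were removed.

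With 18 controls DUN1 with S-metolachlor turned to 0.56 (adjusted p = 0.0473), XRS2 with MCPA-ME to -0.08 and NRM1 with MCPA-ME to 0.11. IRR1 with MCPA-ME turned to -0.01 with array weights. With a floor of 100, SAE2 with S-metolachlor and CLB6 with pyrimethanil stood at 0.00, their values lying under that floor.

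With the replicate number as a block, alachlor had 1 member called, HUG1 (adjusted p = 0.041), where same-numbered cultures did not pair. Pyrimethanil had 4 with RNR1 added. Differences from the mean of the others numbered 8, a fit chosen after seeing the data, and the other counts stood at 5, 3, 2, 3 and 5 (carbofuran, diuron, MCPA-ME, S-metolachlor and the F test over changes). Precision is limited by 3 arrays per group.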
